A study of Mus musculus with 17 samples.

Results

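The opioid peptide precursors and opioid receptors of the mouse hippocampus were followed in RNA-seq libraries of mice with and without functional CBP, the lysine acetyltransferase encoded by Crebbp. The members were 7 of the 55471 genes of the count table, taken by their Ensembl identifiers. They comprised the 3 precursor genes Penk, Pdyn and Pnoc and the 4 receptor genes Oprm1, Oprd1, Oprk1 and Oprl1. All 7 had reads in every library, with raw counts from 5 (Oprk1) to 904 (Oprl1). No value measured in these samples entered the rule that chose them, but they were chosen with earlier results on these samples known.

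Opioid precursors are large proteins that are cut at pairs of basic residues into short peptides. Penk gives the enkephalins, which act mainly on the delta receptor Oprd1 and the mu receptor Oprm1. Pdyn gives the dynorphins, which act mainly on the kappa receptor Oprk1, and Pnoc gives nociceptin, the ligand of Oprl1. The receptors couple to inhibitory G proteins that lower cyclic AMP, open inward rectifier potassium channels and close voltage-gated calcium channels. In the hippocampus, dynorphin is a peptide of dentate granule cells and their mossy fibers, and opioid peptides are known to modulate excitability and seizures.

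The 17 libraries came from the hippocampus of C57BL/6 mice (C57BL/6J in the methods) of 2 genotypes, 3 to 6 months old. CBP-ifKO mice carried Crebbp_flox and Camk2a_creERT2, which after tamoxifen (5 gavages at 20 mg/ml) leaves a truncated CBP without acetyltransferase activity in forebrain excitatory neurons, while interneurons and glia keep the intact gene. Controls also received tamoxifen, and the study describes them as littermates without the Cre driver, although their label names Camk2a_creERT2. Sal mice received saline and no convulsant. PTZ0 and PTZ45 mice of both genotypes received the repeated injections of a kindling protocol with pentylenetetrazol (PTZ), which provokes seizures by blocking GABA-A receptors, and then received saline (PTZ0) or 45 mg/kg PTZ (PTZ45), and tissue was taken 45 min after the last injection. Each group had 3 libraries, except Control PTZ45 with 2. For the saline-treated mice of this experiment, the study describes 1 male mouse per sample. Levels are normalized counts, that is, raw counts divided by the DESeq2 size factors of all 17 libraries. In whole hippocampus, fewer cells of a type and less RNA per cell cannot be told apart.

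Library totals ran from 5831992 to 18735643 counts, with the lowest total in CBP-ifKO Sal replicate 2. Crebbp had 2169 ± 201 normalized counts in the 8 controls and 1214 ± 95 in the 9 CBP-ifKOs (mean ± SD), without overlap. Esr1, whose ligand-binding part belongs to creERT2, was at 41.0 to 77.8 normalized counts in every control library and at 703 to 941 in every CBP-ifKO library. The activity gene Fos rose from 39.6 ± 19.7 (SD, n = 3) in Control Sal to 2699 ± 306 (SD, n = 2) in Control PTZ45 (adjusted p 4.21e-34 by DESeq2). The lane in the library names differed between genotypes within each treatment: Control Sal and PTZ0 were on lane 3, Control PTZ45 and CBP-ifKO Sal on lane 4, and CBP-ifKO PTZ0 and PTZ45 on lane 5.

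The precursors differ in how many opioid peptides a transcript encodes, which is shown here because the genes below are counted as transcripts and not as peptides. Enkephalins and dynorphins share the core Tyr-Gly-Gly-Phe, and nociceptin begins with Phe-Gly-Gly-Phe. Read in frame in the longest annotated coding sequence of GENCODE M21, the codons of the Tyr core occurred 7 times in Penk (804 coding bases) and 3 times in Pdyn (744 coding bases). In all of these the core followed a pair of basic codons. Pnoc (636 coding bases) held no Tyr core and 1 Phe core. Of 21562 genes with such a coding sequence, 0.329% held the Tyr core at least once and 4 held it more than once, namely Penk, Pdyn, Krtap19-2 and Krtap19-4. The sites below run 5′ to 3′ with the core in capitals, from the pair of basic codons on, and positions count from the A of the start codon.
Penk, bases 292 to 318: aagaagTACGGAGGCTTCatgaaacgg
Penk, bases 685 to 711: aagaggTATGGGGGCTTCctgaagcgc
Pdyn, bases 490 to 516: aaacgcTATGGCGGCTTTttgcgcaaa
Pdyn, bases 598 to 624: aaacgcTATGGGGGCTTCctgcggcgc
Pnoc, bases 415 to 441: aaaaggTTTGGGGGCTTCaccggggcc
In Penk the codon after the core was atg in 6 copies and ctg in 1, and in the 3 Pdyn copies it was ttg once and ctg in the others.

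Penk (ENSMUSG00000045573, chr4:4133531-4138819 in GRCm38, minus strand) was lower in all CBP-ifKO libraries than in any control library. In controls it had 166, 163 and 193 normalized counts in Sal, 205, 155 and 209 in PTZ0, and 232 and 230 in PTZ45. In CBP-ifKOs it had 71.1, 89.2 and 68.0 in Sal, 67.0, 83.1 and 81.2 in PTZ0, and 71.5, 67.0 and 93.1 in PTZ45. The highest CBP-ifKO library, at 93.1, thus lay well below the lowest control library, at 155. The CBP-ifKO mean was 39.6% ± 5.19 (SD, n = 9) of the control mean. The genotype difference across treatments was -1.36 on the log2 scale (DESeq2, SE 0.10, adjusted p 2.39e-41). Exons of Penk overlap the antisense gene A830012C17Rik, but this had at most 4 raw counts in any library.

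Pdyn (ENSMUSG00000027400, chr2:129686565-129699844, minus strand) was also lower in every CBP-ifKO library. Control levels were 94.3, 96.0 and 87.7 normalized counts in Sal, 100.1, 116 and 98.1 in PTZ0, and 87.5 and 83.7 in PTZ45. CBP-ifKO levels were 46.1, 29.1 and 53.9 in Sal, 45.0, 41.1 and 37.1 in PTZ0, and 43.1, 43.0 and 40.1 in PTZ45. The genotypes did not overlap, with 53.9 as the highest CBP-ifKO and 83.7 as the lowest control value. The CBP-ifKO mean was 44.1% ± 7.11 (SD, n = 9) of the control mean, with a log2 fold change of -1.14 (DESeq2, SE 0.12, adjusted p 4.66e-20) over all treatments. The study lists Penk and Pdyn among genes lowered in CBP-ifKOs, a list made in part from the Sal libraries used here. Their direction in Sal is therefore not independent evidence, and neither are results over all treatments, which include these libraries. The raw counts behind these levels were modest, from 43 to 262 for Penk and from 14 to 121 for Pdyn.

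Pnoc (ENSMUSG00000045731, chr14:65400673-65425472, minus strand) overlapped between the genotypes. It had 41.7 ± 9.21 normalized counts in the 8 controls and 40.3 ± 9.46 in the 9 CBP-ifKOs (mean ± SD), and the ranges, 29.8 to 55.4 and 26.8 to 56.2, nearly coincided. Across treatments its log2 fold change came to -0.04, with a 95% confidence interval from -0.33 to 0.25 (adjusted p 0.887 by DESeq2). Per kb of exon, Penk was 69.0% ± 5.63 (SD, n = 8) of the 3 precursors in controls and, without CBP, 58.6% ± 4.67 (SD, n = 9). The share of Pnoc was 11.5% ± 3.20 (SD, n = 8) and 23.1% ± 3.79 (SD, n = 9), and that of Pdyn 19.5% ± 3.28 (SD, n = 8) and 18.4% ± 3.65 (SD, n = 9). The sum of the 3 precursors was 171 ± 13.4 normalized counts per kb in the 8 controls and 80.2 ± 7.60 in the 9 CBP-ifKOs (mean ± SD), without overlap between the genotypes.

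**Figure D1:**
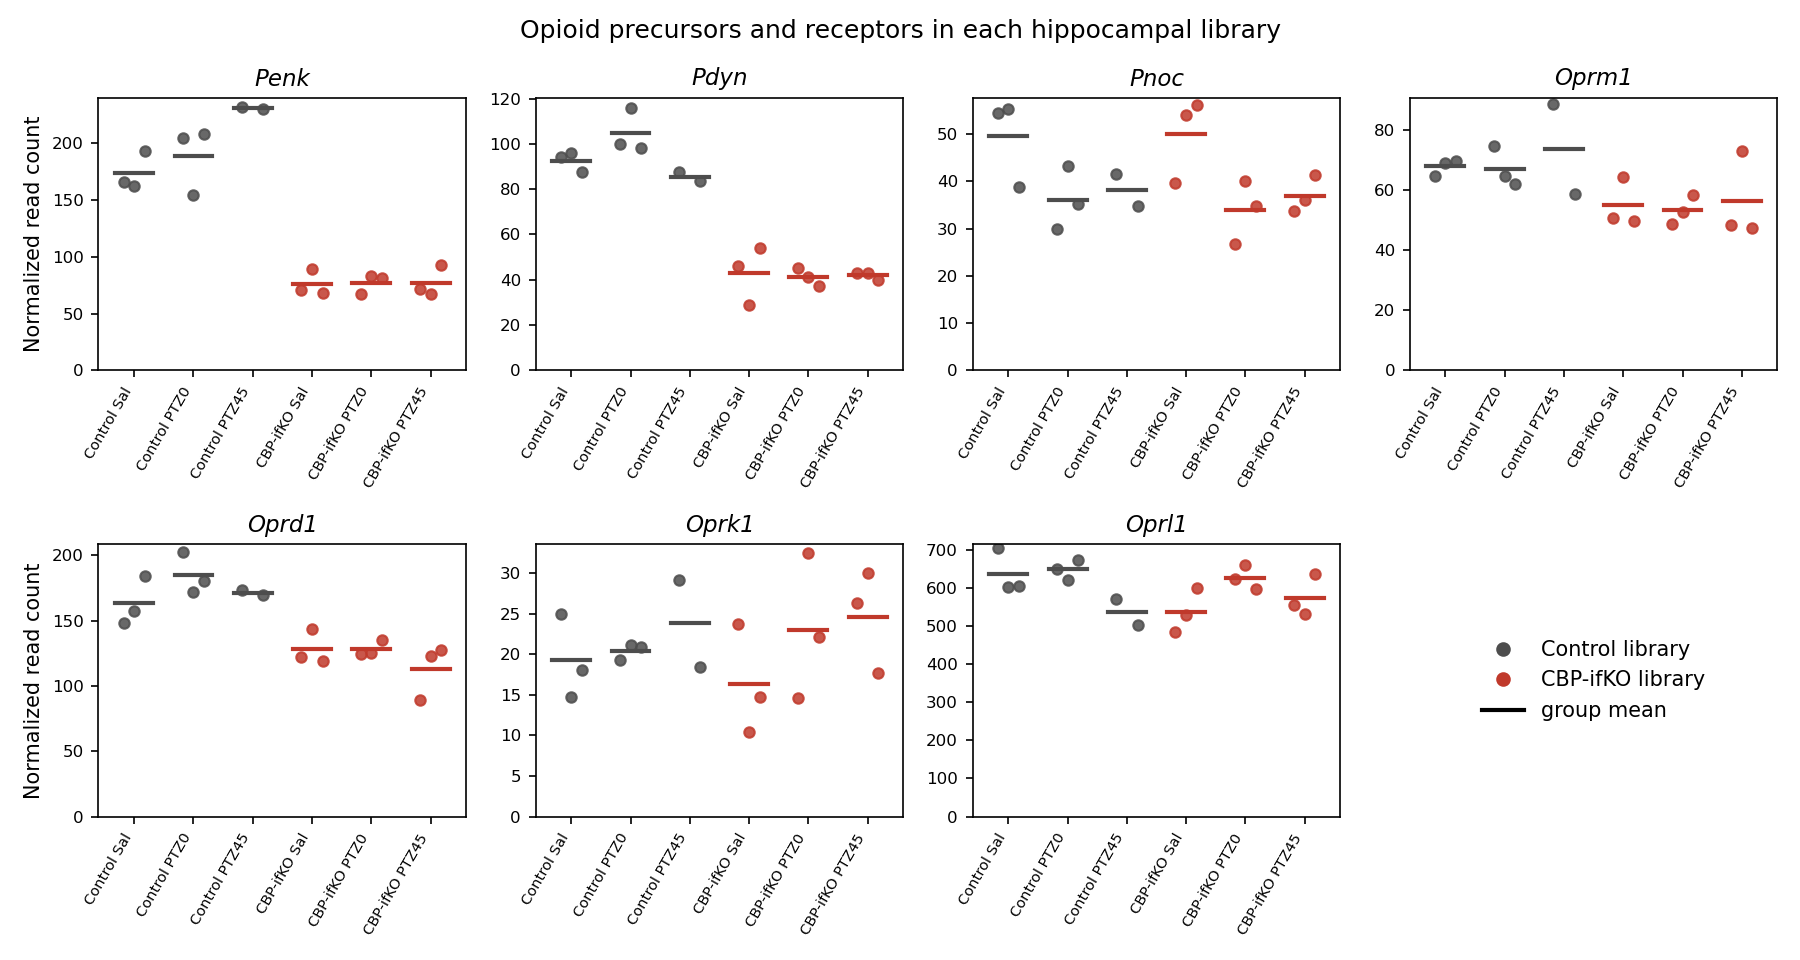
Normalized read counts (y axes from 0) of the 7 genes in each library, by group (x axes, 3 libraries each and 2 for Control PTZ45), with points for libraries and bars for group means. Penk, Pdyn and Oprd1 keep the genotypes apart in all 17 libraries, whereas Pnoc, Oprk1 and Oprl1 overlap.

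Among the receptors, the delta receptor Oprd1 (ENSMUSG00000050511, chr4:132110726-132144486, minus strand) was lower without CBP in every library. It had 148, 158 and 184 normalized counts in Control Sal, 203, 172 and 180.0 in Control PTZ0, and 173 and 169 in Control PTZ45. In CBP-ifKOs it had 122, 143 and 119 in Sal, 124, 125 and 135 in PTZ0, and 89.4, 123 and 127 in PTZ45. The margin was small, since the highest CBP-ifKO value was 143 and the lowest control value 148. The CBP-ifKO mean was 71.0% ± 8.45 (SD, n = 9) of that in controls, and across treatments the log2 difference was -0.50 (DESeq2, SE 0.08, adjusted p 1.35e-07). Of the 13041 genes that averaged 50 normalized counts or more, 2.87% were lower in all 9 CBP-ifKO libraries than in all 8 control libraries, and Penk, Pdyn and Oprd1 were among them.

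The mu receptor Oprm1 (ENSMUSG00000000766, chr10:6758506-7038198, plus strand) was lower on average, with overlap. It had 64.7, 68.9 and 69.6 normalized counts in Control Sal, 74.6, 64.4 and 61.9 in Control PTZ0, and 88.4 and 58.7 in Control PTZ45. In CBP-ifKOs it had 50.6, 64.3 and 49.5 in Sal, 48.7, 52.5 and 58.4 in PTZ0, and 48.4, 73.0 and 47.2 in PTZ45. Of the 9 CBP-ifKO libraries, 7 lay below the lowest control library. The CBP-ifKO mean was 79.4% ± 12.8 (SD, n = 9) of the control mean, with a log2 fold change of -0.36 (DESeq2, SE 0.12, adjusted p 0.0262). This call was lost in 5 of the 17 fits that left out 1 library, those without CBP-ifKO Sal replicate 1 or 3, Control PTZ0 replicate 1, Control PTZ45 replicate 1 or CBP-ifKO PTZ45 replicate 1, with an adjusted p of 0.122 without Control PTZ45 replicate 1. Exons of Oprm1 overlap those of the antisense gene Ipcef1, which had 690 ± 55.8 normalized counts in the 8 controls and 476 ± 44.4 in the 9 CBP-ifKOs (mean ± SD). Whether the strand was used in counting is not stated, so reads of the 2 genes in the shared stretch cannot be told apart.

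The nociceptin receptor Oprl1 (ENSMUSG00000027584, chr2:181715016-181720985, plus strand) was the receptor with the most reads, with 617 ± 62.6 normalized counts in the 8 controls and 580 ± 58.0 in the 9 CBP-ifKOs (mean ± SD). Its ranges, 504 to 704 and 485 to 662, overlapped, and its log2 fold change was -0.08, with a 95% confidence interval from -0.20 to 0.04 (adjusted p 0.428 by DESeq2). The kappa receptor Oprk1 (ENSMUSG00000025905, chr1:5588466-5606131, plus strand) was the least detected member, with 20.8 ± 4.45 normalized counts in the 8 controls and 21.3 ± 7.51 in the 9 CBP-ifKOs (mean ± SD). Its log2 fold change of 0.03 had a 95% confidence interval from -0.39 to 0.45 (adjusted p 0.950 by DESeq2). At 5 to 37 raw counts per library, differences of Oprk1 within this interval were not excluded.

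Over all treatments, then, 4 of 7 members were called lower in CBP-ifKOs and 0 higher, where DESeq2 called 19.3% of 18682 genes, that is 11.5% lower and 7.76% higher. The median log2 fold change was -0.36 over the members and 0.01 over all genes tested. When the genotypes were compared within each treatment, Penk and Pdyn were called in all 3. In Sal, 2 of the 6 members with an adjusted p were called, against 2.04% of all genes, with log2 fold changes of -1.24 (SE 0.20, adjusted p 2.29e-07) for Penk and -1.04 (SE 0.26, adjusted p 0.00637) for Pdyn by DESeq2. In PTZ0, 3 of 5 were called, against 6.68% of all genes: Penk at -1.29 (SE 0.19, adjusted p 3.60e-09), Pdyn at -1.36 (SE 0.24, adjusted p 2.20e-06) and Oprd1 at -0.53 (SE 0.16, adjusted p 0.0232) by DESeq2. In PTZ45, 2 of 7 were called, against 3.07% of all genes, with -1.58 (SE 0.22, adjusted p 5.19e-10) for Penk and -1.02 (SE 0.31, adjusted p 0.0378) for Pdyn by DESeq2. The members without an adjusted p, left out by the filter of DESeq2 on low counts, were Oprk1 in Sal and Pnoc and Oprk1 in PTZ0.

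The log2 fold change of Oprd1 was -0.37 in Sal (adjusted p 0.419 by DESeq2) and -0.60 in PTZ45 (adjusted p 0.153 by DESeq2), and Oprd1 in PTZ45 was called by edgeR (adjusted p 0.0227). Oprm1 had -0.34 in Sal, -0.33 in PTZ0 and -0.39 in PTZ45, in none of them called. Oprl1 had -0.25 in Sal (unadjusted p 0.0355, adjusted p 0.399 by DESeq2, 95% confidence interval from -0.48 to -0.02), -0.05 in PTZ0 and 0.10 in PTZ45, also without a call. The Penk call in each treatment held in every fit that left out 1 library. By contrast, the Pdyn call in Sal was lost in each of the 4 such fits that gave it an adjusted p (0.0615 to 0.128), that in PTZ45 in all 5 (0.181 to 0.703), and that of Oprd1 in PTZ0 in all 6 (0.0862 to 0.304), with the sign kept each time. Over all alternative fits the log2 fold change ran from -1.225 to -0.89 for Pdyn in Sal and from -1.06 to -0.99 in PTZ45. For Oprd1 in PTZ0 it ran from -0.58 to -0.46. Within a single lane, CBP-ifKO Sal and Control PTZ45 could be compared, and 1 of 6 members was called, against 3.41% of all genes. It was Penk, at -1.64 (DESeq2, SE 0.23, adjusted p 1.98e-10), in a contrast that also holds the difference in treatment. Pdyn was at -0.94 (SE 0.34, adjusted p 0.108 by DESeq2, 0.0125 by edgeR) there. With lane as a term over all 17 libraries, Penk remained called at -1.54 (DESeq2, SE 0.31, adjusted p 3.42e-04), whereas Pdyn at -0.69 (SE 0.39, adjusted p 0.855), Oprd1 at -0.45 (SE 0.28, adjusted p 0.916) and Oprm1 at -0.41 (SE 0.42, adjusted p 0.999) had wider errors and were not called. That fit called 132 of 15643 genes lower, where the one without lane called 2157 of 18682.

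**Figure D2:**
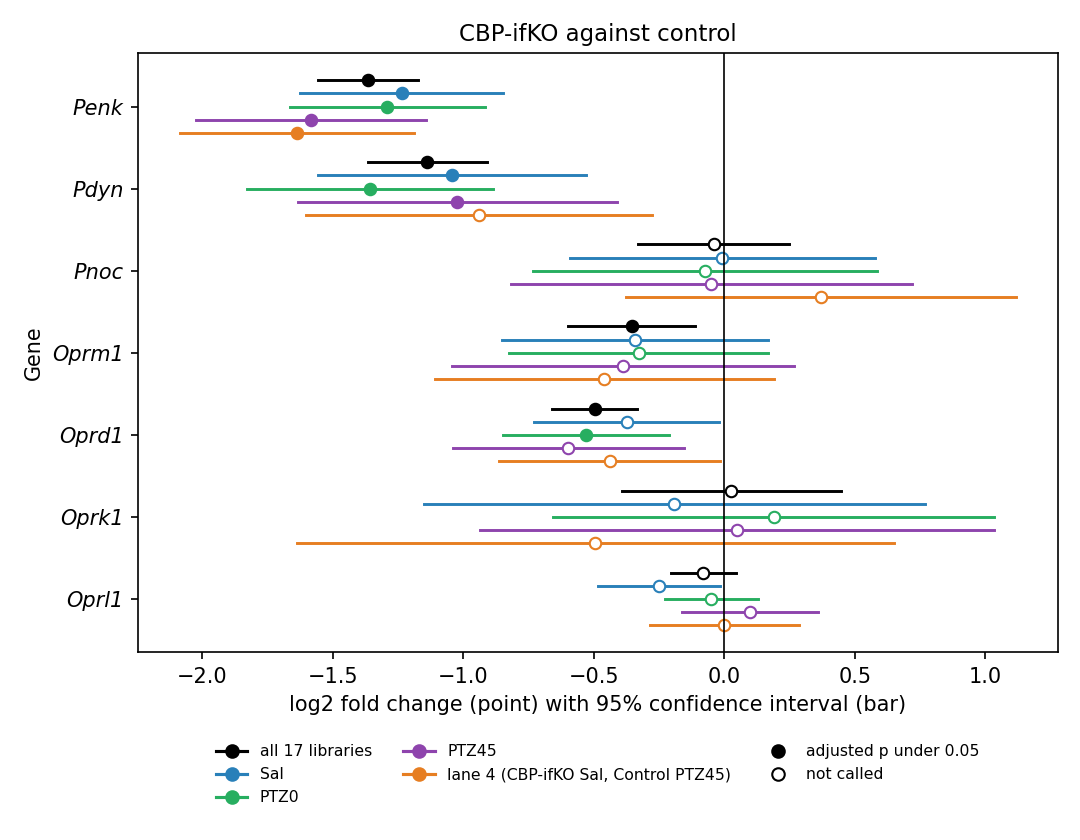
Log2 fold changes of CBP-ifKO against control (x axis) for each gene (y axis), with DESeq2 95% confidence intervals, over all 17 libraries, in Sal, PTZ0 and PTZ45, and within lane 4. Penk is called (filled points) in all 5 comparisons and Pdyn in 4, and the intervals of Pnoc, Oprk1 and Oprm1 within treatments include 0.

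The levels per kb of exon allow the genes to be ordered. In controls the order was Oprl1 (164 ± 16.7 normalized counts per kb), Penk (119 ± 18.5), Oprd1 (43.1 ± 4.14), Pdyn (33.1 ± 3.49), Pnoc (19.3 ± 4.27), Oprm1 (8.57 ± 1.16) and Oprk1 (2.28 ± 0.49), each as mean and SD of n = 8. The library ranges of the neighbours Oprl1 and Penk overlapped, and so did those of Oprd1 and Pdyn, but Oprl1 was above Penk in 7 of 8 libraries and Oprd1 above Pdyn in 8 of 8. In CBP-ifKOs the means were 155 ± 15.5 for Oprl1, 47.0 ± 6.16 for Penk, 30.6 ± 3.65 for Oprd1, 18.7 ± 4.39 for Pnoc, 14.6 ± 2.35 for Pdyn, 6.81 ± 1.10 for Oprm1 and 2.33 ± 0.82 for Oprk1 (SD, n = 9). Pdyn was thus above Pnoc in all 8 control libraries and below it in 8 of 9 CBP-ifKO libraries, where the ranges of Oprd1 and Pnoc and of Pnoc and Pdyn overlapped. Divided by coding length instead, the control order stayed the same. In CBP-ifKOs the mean of Oprd1 (110 ± 13.1 normalized counts per kb of coding sequence, SD, n = 9) came before that of Penk (95.5 ± 12.5). Their ranges overlapped, with Oprd1 above Penk in 7 of 9 libraries, and Pnoc was above Pdyn in 5 of 9.

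**Figure D3:**
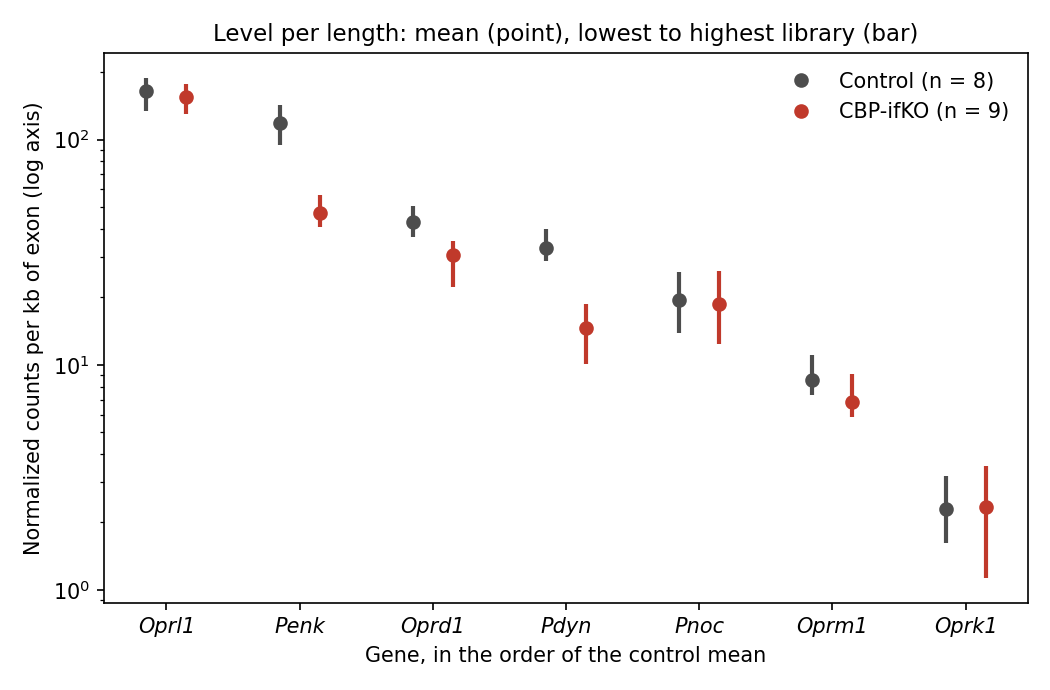
Normalized counts per kb of exon (y axis, log scale) of each gene (x axis, in the order of the control mean), with points for the genotype mean and bars from the lowest to the highest library. Penk goes from 119 in controls to 47.0 in CBP-ifKOs and Pdyn from 33.1 to 14.6, while Oprl1, Pnoc and Oprk1 stay within overlapping ranges.

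Whether the opioid genes respond to PTZ was asked in each genotype 45 min after the last injection and, in PTZ0, after the repeated injections alone. In the study the last injection came a week after kindling. It places many genes affected in CBP-ifKOs among late response genes, which rise in a delayed wave. No later time was sampled here, so a response slower than 45 min is not covered. The groups are defined by the injections given and not by whether seizures followed. The study reports that the controls all came to have seizures under this protocol, whereas no CBP-ifKO reached the progressive seizure stage. By that report the PTZ groups of the genotypes also differ in seizures. DESeq2 called 0 of 7 members in each of the 7 treatment comparisons. In controls, PTZ45 against Sal called 1.17% of all genes and PTZ45 against PTZ0 called 1.25%. In CBP-ifKOs the shares were 0.294% and 0.0872%. PTZ0 against Sal called 0.00843% in controls, 0.0112% in CBP-ifKOs and 0% with both genotypes together. Of the members, 2 had an unadjusted p under 0.05 in PTZ45 against Sal in controls (Penk and Oprl1), 1 in PTZ45 against PTZ0 in controls (Oprl1), 1 in PTZ0 against Sal in both genotypes (Pnoc) and 0 in the other 4, and edgeR called Oprl1 in PTZ45 against PTZ0 in controls and no other member.

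For Penk both Control PTZ45 libraries, at 232 and 230 normalized counts, lay above all 6 other control libraries, whose highest was 209. Of the 13041 genes averaging 50 normalized counts or more, 12.1% had both Control PTZ45 libraries above the other 6 controls and 10.1% had both below, so that such a separation was common among all genes. The log2 fold change was 0.40 against Sal (SE 0.18, unadjusted p 0.0211, adjusted p 0.477 by DESeq2) and 0.28 against PTZ0 (SE 0.18, adjusted p 0.751). In CBP-ifKOs the PTZ45 libraries of Penk spanned those of Sal, with a log2 fold change of 0.04 and a 95% confidence interval from -0.45 to 0.53. For Oprl1 both Control PTZ45 libraries, at 570.4 and 504 normalized counts, lay below the other 6 control libraries, whose lowest was 603, as in that 10.1% of genes. Its log2 fold change was -0.25 against Sal (DESeq2, SE 0.12, adjusted p 0.637) and -0.27 against PTZ0 (SE 0.11, adjusted p 0.337 by DESeq2, 0.0414 by edgeR). The Control PTZ45 libraries of Pdyn, at 87.55 and 83.7, were below the other controls only by a very small margin, as the lowest of these had 87.69. The log2 fold change of Pdyn was -0.11 against Sal (DESeq2, SE 0.24, adjusted p 0.992). Control PTZ45 had 2 libraries on lane 4 and the other controls were on lane 3, so PTZ and lane cannot be told apart in controls, and the comparisons with Sal and with PTZ0 share these 2 libraries.

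The same comparison within CBP-ifKOs on lane 5, PTZ45 against PTZ0, gave log2 fold changes from -0.18 (Oprd1) to 0.11 (Pnoc). Pnoc had a lower mean in PTZ0 than in Sal in both genotypes, without a call. Its PTZ0 libraries had 29.8, 43.3 and 35.2 normalized counts in controls and 26.8, 40.1 and 34.7 in CBP-ifKOs. In Sal it had 54.5, 55.4 and 38.9 in controls and 39.7, 53.9 and 56.2 in CBP-ifKOs. The groups overlapped in each genotype, and the log2 fold change with both together was -0.49 (SE 0.19, unadjusted p 0.00774, adjusted p 0.99996 by DESeq2). None of the 7 members was called for an interaction of genotype and PTZ45, where 0.329% of all genes were called, or of genotype and PTZ0, where 0% were. The interaction with PTZ45 was -0.35 for Penk (DESeq2, SE 0.27, adjusted p 0.99998) and 0.34 for Oprl1 (SE 0.17, unadjusted p 0.0472, adjusted p 0.99998), the 1 member with an unadjusted p under 0.05, and for Penk its 95% confidence interval ran from -0.89 to 0.18. With PTZ0, 0 members had an unadjusted p under 0.05, and edgeR called none in either interaction.

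**Figure D4:**
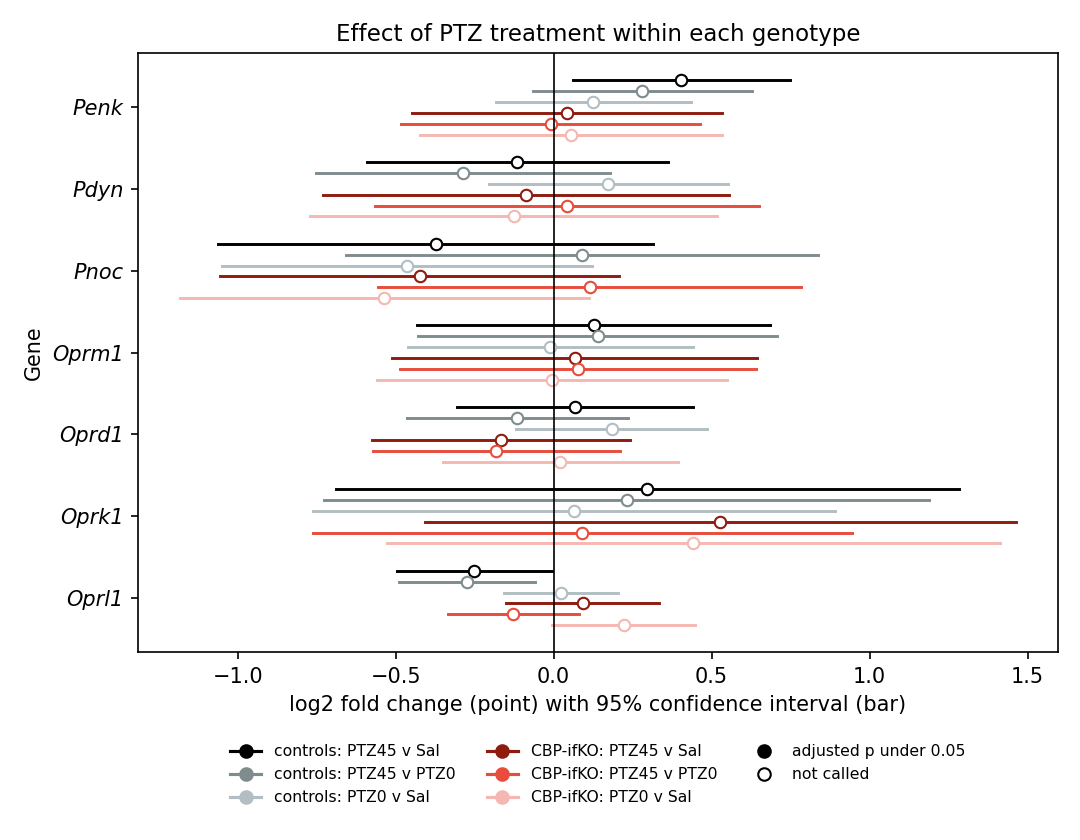
Log2 fold changes between treatments (x axis) for each gene (y axis) in controls (black and grey) and CBP-ifKOs (red), with DESeq2 95% confidence intervals. No comparison is called (all points open), and the intervals that lie on 1 side of 0 are those of Penk for PTZ45 against Sal and of Oprl1 for PTZ45 against Sal and against PTZ0, all in controls.

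Promoter windows were read from RefSeq (GRCm38.p6), 250 bases before to 50 after each annotated start, to show the sequence in front of the members that fell. Of the 7 members, 4 had at least 1 entry in the promoter set used, with 9 windows in all. Penk, Pnoc and Oprk1 had no entry in this set, so no window of Penk, the member with the largest fall, was searched. The windows were searched on both strands for motifs of factors that recruit CBP: the full cAMP response element TGACGTCA, its shorter form TGACG or CGTCA (which lies within the full element), and the AP-1 site TGANTCA. Of 32851 windows of 300 bases, 1.79% held the full element, 20.8% a shorter form and 7.81% an AP-1 site. None of the 9 windows of Pdyn, Oprd1, Oprm1 and Oprl1 held any of these letters, as was true of most windows of all genes. The windows are not all separate, since the Oprm1 windows from 6788320 and from 6788326 nearly coincide, and Oprl1 was not among the members that fell. Sites farther from the start, such as enhancers, were not searched. The upstream window of Pdyn had 59% GC and 11 CpG, and that of Oprd1 79.3% GC and 43 CpG. The 250 bases before the start of each are printed on the coding strand in lower case, with no motif to mark.
Pdyn, chr2:129699939-129700188, minus strand: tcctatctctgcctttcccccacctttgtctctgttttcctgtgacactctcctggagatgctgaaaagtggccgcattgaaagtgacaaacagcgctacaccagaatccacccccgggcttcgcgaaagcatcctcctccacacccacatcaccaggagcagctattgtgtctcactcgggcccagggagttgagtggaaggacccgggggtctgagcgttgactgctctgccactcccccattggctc
Oprd1, chr4:132144487-132144736, minus strand: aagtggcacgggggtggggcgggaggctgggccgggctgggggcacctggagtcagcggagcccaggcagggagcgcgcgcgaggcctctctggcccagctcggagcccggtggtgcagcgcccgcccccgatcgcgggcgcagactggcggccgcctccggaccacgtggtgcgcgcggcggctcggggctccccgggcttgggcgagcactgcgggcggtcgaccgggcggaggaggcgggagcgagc

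Genes that make, cut or transduce opioid signals were taken as a list of 45, chosen with earlier results of these data known. Over all treatments, 18 of the 44 with an adjusted p were called lower in CBP-ifKOs and 3 higher, where 11.5% of all genes tested were called lower and 7.76% higher. Their median log2 fold change was -0.07, against 0.01 over all genes tested. Of the 7 genes of peptide processing, 4 fell: Pcsk1, the prohormone convertase that makes the first cuts, by 0.57 (DESeq2, SE 0.07, adjusted p 6.02e-15) on the log2 scale, Pam, the amidating enzyme, by 0.24, Scg5, the chaperone of the second convertase, by 0.18, and Pcsk2, that convertase, by 0.12. Ctsl, a protease that also cuts precursors, rose by 0.22. Cpe, which trims the basic residues, was at -0.06 (adjusted p 0.456 by DESeq2). Of the 7 peptidases that degrade opioid peptides, 1 was called, Ece2, higher by 0.36, and neprilysin (Mme) was at -0.07 (adjusted p 0.698 by DESeq2).

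Of the 14 G protein subunits, arrestins, receptor kinases and RGS proteins, 6 fell and 1 rose, in a comparison that called 19.3% of all genes. Rgs4, which speeds the turn-off of inhibitory G proteins, fell by 0.87 (DESeq2, SE 0.08, adjusted p 1.20e-25) on the log2 scale, and Rgs7 by 0.22, Gnaz by 0.24, Gnai1 by 0.15, Arrb1 by 0.11 and Grk3 by 0.09. Rgs9 rose by 0.32. Of the 8 effectors, 4 fell, namely the potassium channel subunit Kcnj9 by 0.31 and the adenylyl cyclases Adcy8 by 0.34, Adcy5 by 0.30 and Adcy1 by 0.16, while Kcnj3 (-0.10), Kcnj6 (0.01) and the calcium channel genes Cacna1a and Cacna1b (both 0.14) were not called. Of the 7 transcription factors known to act at Penk or Pdyn, 4 fell. Kcnip3 (DREAM), a calcium-binding repressor of Pdyn, fell by 0.71 (DESeq2, SE 0.06, adjusted p 2.84e-30), while Creb1 (-0.0038) and Crem (0.06) were not called. Fos, Jun and Junb, which had log2 fold changes of -1.53, -0.70 and -1.299 over all treatments, were within PTZ45 at -3.53, -1.47 and -2.97. With lane as a term, 6 of 44 list genes were called lower, in a fit that called 132 of 15643 genes lower and 3 higher.

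**Figure D5:**
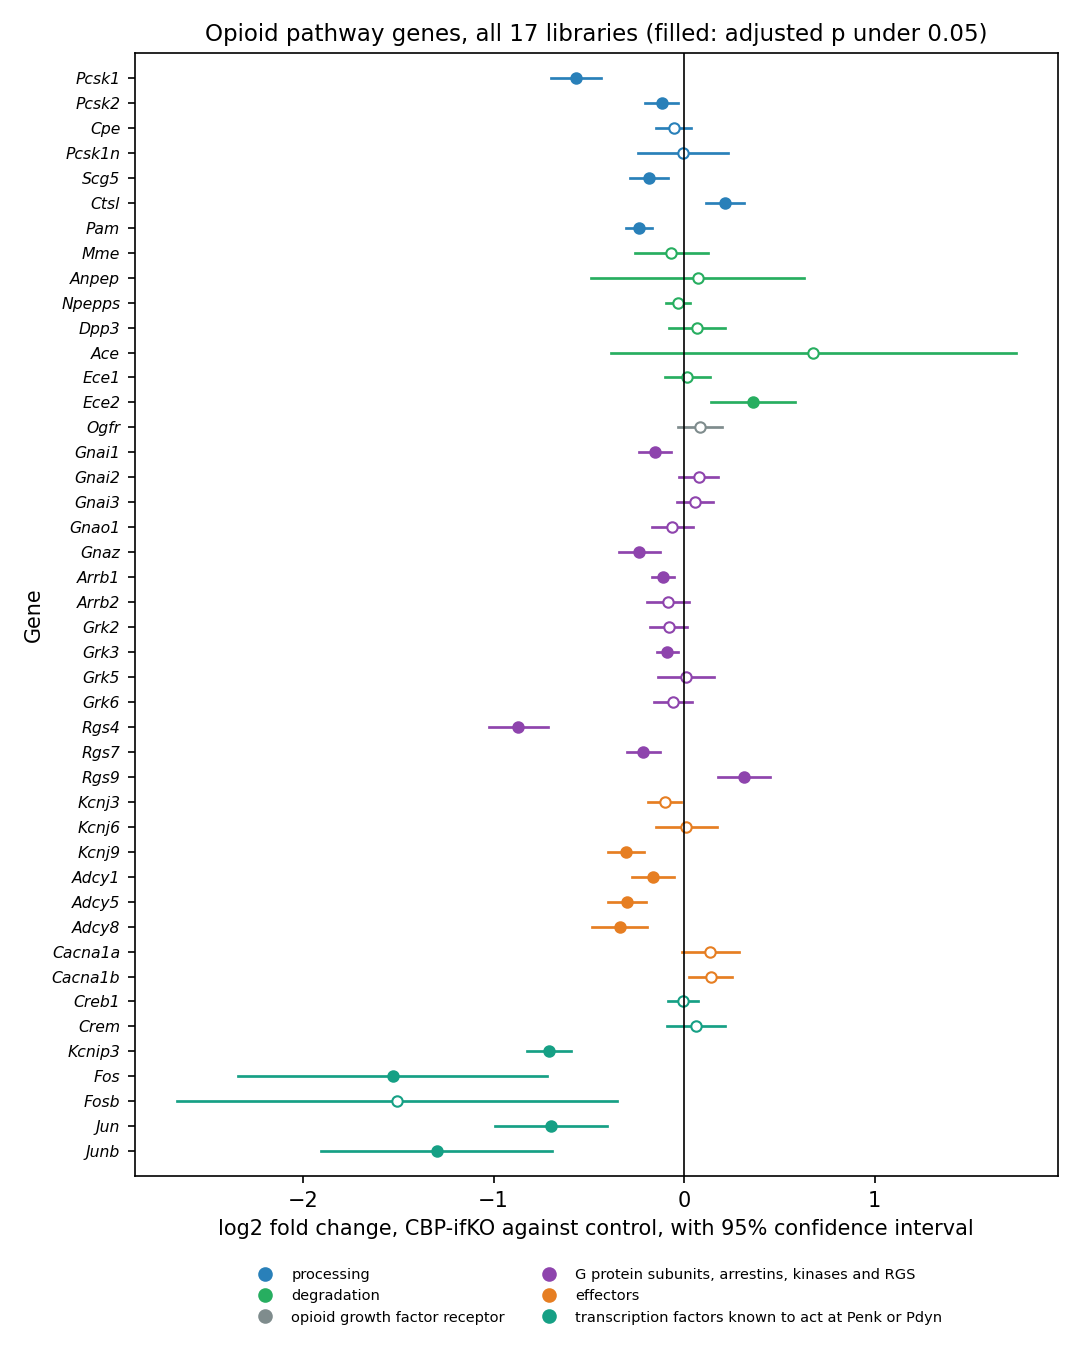
Log2 fold changes of CBP-ifKO against control over all 17 libraries (x axis) with DESeq2 95% confidence intervals for the 44 list genes other than Pomc (y axis, colours for classes, filled points for adjusted p under 0.05). Rgs4 is at -0.87, Kcnip3 at -0.71, Jun at -0.70 and Pcsk1 at -0.57, and the intervals of Fos, Fosb and Junb are wider than those of these 4 genes.

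Within treatments, 4 of 42 list genes were called in Sal (Pcsk1, Rgs4, Kcnip3 and Junb), 8 of 41 in PTZ0 and 8 of 43 in PTZ45, all lower, beside 2.04%, 6.68% and 3.07% of all genes called in either direction. Pcsk1, Rgs4 and Kcnip3 were called in all 3. In controls, PTZ45 against Sal called Fos, Fosb, Jun, Junb and Rgs4 higher and Pcsk1n, an inhibitor of the first convertase, lower, beside 1.17% of all genes, and the interaction with PTZ45 was called for the first 5 of these, beside 0.329% of all genes. In CBP-ifKOs, PTZ45 against Sal called Fos and Fosb higher and Pcsk1n lower, beside 0.294% of all genes. PTZ45 against PTZ0 called Fos, Fosb, Jun, Junb, Rgs4 and Kcnj3 higher in controls (1.25% of all genes) and Fos higher and Pcsk1n lower in CBP-ifKOs (0.0872%). For PTZ45 against Sal in controls, Rgs4 was higher by 0.88 (DESeq2, SE 0.11, adjusted p 9.84e-13), with an interaction of -0.62 (DESeq2, SE 0.15, adjusted p 0.00881).

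The 3 genes whose log2 levels over all 17 libraries were most like those of a member, among those averaging 50 normalized counts or more, were named by Pearson's r. The libraries share their genotype groups, so r is given with and, in brackets, without the group means, as a description. For Penk they were Camk1g at 0.97 (0.43), Caln1 at 0.97 (0.53) and Pxdn at 0.96 (0.49). For Pdyn they were Thbs3 at 0.95 (0.11), Fam19a1 at 0.94 (0.65) and Prmt8 at 0.94 (0.42). For Oprd1 they were Csdc2 at 0.91 (0.52), Tesc at 0.91 (0.57) and Pxdn at 0.91 (0.62), so that Pxdn was near both Penk and Oprd1. All of these had lower means in CBP-ifKOs than in controls, such as Camk1g with 134 against 271 normalized counts. For Oprm1 they were Pde2a at 0.84 (0.73), Kirrel3 at 0.83 (0.72) and Adgra1 at 0.81 (0.75), and for Oprl1 Vhl at 0.89 (0.84), Rps14 at 0.87 (0.84) and Psmb10 at 0.86 (0.89).

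Cell type markers were compared as summed normalized counts. The 6 dentate granule markers summed to 3587 to 4919 in controls and 3799 to 4946 in CBP-ifKOs, overlapping. This sum mixed markers with higher means in CBP-ifKOs, such as Prox1 (1369 and 1643) and Lct (512 and 851), with markers with lower means, such as C1ql2 (294 and 93.6) and Tdo2 (109 and 54.8). The 5 CA1 markers were at 5416 to 6120 and 3783 to 4615, without overlap. All 5 had lower means in CBP-ifKOs, such as Wfs1 (721 and 335) and Mpped1 (1806 and 1290). The 5 CA3 markers were at 2683 to 3086 and 2000 to 2705, overlapping. Among the CA3 markers Cpne4 had means of 1397 and 1029 and Iyd of 55.4 and 43.1. In proportion, Nectin3 (941 and 911), Bok (411 and 395) and Coch (94.6 and 95.5) were closer. The 8 interneuron markers overlapped at 10202 to 10963 and 9241 to 10367. The 7 striatum markers, of a tissue rich in Penk and Pdyn next to the hippocampus, were at 591 to 717 and 496 to 725, with Drd2 and Adora2a near 10 normalized counts and no marker at 0 in any library. The part of these lists in the differences of the members was not tested.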

How the data were processed

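RNA-seq of hippocampus was used from 17 libraries in 6 groups. The authors trimmed 50-base single-end reads with Trim Galore 0.6.4, aligned them to GRCm38 with STAR 2.6.1, kept reads of mapping quality over 10, counted them over Ensembl exons with Rsubread, and deposited raw counts per gene. Whether strand was used is not given in the sources used here. Of 18 count columns, 1 matched no sample and was not used.

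From these counts, groups were compared in R 4.3.3 by DESeq2 1.42.0 (two-sided Wald test, genes with at least 1 count, independent filtering, Benjamini-Hochberg adjusted p under 0.05), each pair of groups fitted alone. For the genotype effect across treatments, all 17 libraries entered a model with treatment as a term. The alternatives were edgeR 4.0.16 (quasi-likelihood), TMM size factors, a minimum of 10 counts in 2 libraries, a fit of all libraries, a GC correction, a replicate block, lane as a term and leaving out each library. All counts rest on 1 scaling per library, and p-values measure the spread between libraries. Scripts were tested on simulated data.

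The text names the 7 members, Crebbp, Esr1 and Fos as checks, the 3 genes most correlated with each member whose mean is at least 50, and the list genes called for genotype over all treatments. Other list and marker genes were named after their values were seen. Members and lists were chosen with earlier results of these data known. The lists were opioid pathway genes and markers of dentate granule, CA1, CA3, interneuron, striatum, thalamus and habenula, choroid plexus, astrocyte, oligodendrocyte, microglia and endothelium.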

Additional observations from a re-analysis of the deposited data

How the results depend on the processing

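Across the alternatives, no called member changed sign and the genotype difference of Penk was called wherever it had an adjusted p. Of 1262 member values, 1231 kept their side of the threshold, 26 lost and 5 gained a call. With lane as a term, 1 member instead of 4 and 6 list genes instead of 18 were called lower over all treatments, where genotype and lane are largely confounded and standard errors grew. That fit called 132 of 15643 genes lower, where the one without lane called 2157 of 18682. Leaving out 1 library left 1 call (1 to 1, instead of 2) within Sal and also within PTZ45 (1 to 1). Within lane 4, edgeR and the fit of all 17 libraries each called 2 members instead of 1, and edgeR called 1 instead of 0 for PTZ45 against PTZ0 in controls. Over all genes within lane 4, edgeR called 396 higher and 649 lower of 35377 and the fit of all libraries 284 and 1012 of 16404, against 55 and 473 of 15483 in the pair alone. For PTZ45 against PTZ0 in controls, edgeR called 464 higher and 309 lower of 34898. The cause of these changes was not tested.

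Replicate numbers shared between groups did not pair the samples: of 40 pairs with the same number, 15 had deviations correlated over 0.1 (median r -0.0606). With a replicate block, 1 member was called in Sal, 1 in PTZ45 and 0 in PTZ0, where Oprl1 was the 1 member with an adjusted p and the log2 fold changes stayed at -1.29 for Penk and -1.35 for Pdyn, and Oprm1 over all treatments had an adjusted p of 0.0572 by DESeq2. Over all genes the block fits called 10 higher and 112 lower of 13632 in Sal, 57 and 353 of 9332 in PTZ0, and 2 and 100 of 13877 in PTZ45. Oprk1, with 5 to 37 raw counts per library, had no adjusted p for genotype in Sal, in PTZ0 and within lane 4.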

Other observations

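Penk and Pdyn, both lower in CBP-ifKOs, varied in opposite directions among libraries of a group, a pattern chosen after the values were seen. Over the 17 libraries Pearson's r of their log2 levels was 0.86, and after removal of the group means it was -0.73. In 4 of the 5 groups of 3 libraries, the library highest in Penk was the lowest in Pdyn. In CBP-ifKO Sal, for example, replicate 2 had 89.2 normalized counts of Penk and 29.1 of Pdyn, the highest and lowest of that group, and it was also the library of the lowest total. After removal of the group means, the summed CA3 markers had an r of 0.83 with Pdyn and -0.48 with Penk, and the dentate granule markers 0.13 and -0.31. Pdyn varied most in CBP-ifKO Sal (SD 12.7 normalized counts, at most 9.80 in any other group), which also held the lowest CA3 sum of all libraries, 2000. The r values of Pdyn can thus rest largely on this group, and none was calculated without it. Other marker lists also had r away from 0 with other members, such as choroid plexus with Oprl1 at -0.69, microglia with Oprl1 at 0.68, endothelium with Oprd1 at 0.66, astrocyte and oligodendrocyte with Oprm1 at -0.63 and -0.62, and striatum with Oprl1 at -0.59. These are descriptions over 17 libraries that share their scaling, and the part of dissection or cell composition was not tested.

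The choroid plexus markers varied most between libraries, from 411 to 24305 summed normalized counts in controls and from 417 to 44063 in CBP-ifKOs. The thalamus and habenula markers were at 1701 to 2138 and 1690 to 2046, the astrocyte markers at 12113 to 13377 and 10796 to 13032, the oligodendrocyte markers at 22648 to 29803 and 21370 to 29553, the microglia markers at 2030.5 to 2332 and 1740 to 2365, and the endothelium markers at 942 to 1060.0 and 877 to 1108, all overlapping between the genotypes.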
